A study of Rattus with 12 samples.

Results

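The 10 genes described here encode chemokine ligands, and they are the rows named Ccl2, Ccl7, Ccl20, Ccl5, Ccl3, Cxcl1, Cxcl2, Cxcl10, Cxcl12 and Cx3cl1 among the 17337 gene symbols of the count table. Bulk RNA-sequencing was carried out on 12 primary Sprague Dawley rat co-cultures of cortical neurons, astrocytes and oligodendrocyte precursor cells. The untreated cultures A, G, M and P received no fentanyl, an opioid agonist. The low dose cultures B, H, N and Q received 0.01 µM fentanyl and the high dose cultures C, I, O and R received 10 µM, in each case for 4 days. Cell types were bought as separate preparations and combined. The study calls the 4 cultures of a condition biological replicates, and whether each came from its own cell preparation is not given in the sources used here, so p-values measure the spread between these cultures. Cultures with consecutive letters form 4 letter sets, named here by their untreated culture: set A (with B and C), set G (with H and I), set M (with N and O) and set P (with Q and R). Nothing in the sources states what the letters mean, and the sets are used below only to give differences as values and for alternative models. Ccl2, Ccl7, Ccl20, Cxcl10 and Cxcl12 were picked out by the study from these same cultures, so their direction is not independent evidence.

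Chemokines are small secreted proteins that bind G-protein coupled receptors on leukocytes and glia and direct cell migration. The CC ligands Ccl2 and Ccl7 attract monocytes, Ccl20 acts on cells bearing Ccr6, and Ccl3 and Ccl5 act on monocytes and T cells. The CXC ligands Cxcl1 and Cxcl2 attract neutrophils through Cxcr2, Cxcl10 is an interferon-induced ligand of Cxcr3, and Cxcl12 acts on Cxcr4 and Ackr3. Cx3cl1, or fractalkine, is made mainly by neurons in the brain and is sensed by microglia through Cx3cr1. Astrocytes and microglia are known to make the inflammatory ligands after cytokine signals that act through NF-kB.

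The libraries held 12059872 to 24813893 counts assigned to genes. Untreated culture G stood apart from the other 11 cultures. Its 14 neuron markers summed to 342 CPM (counts scaled to a common library size) against 3394 to 5283 in the others, and its 8 fibroblast markers summed to 2984 CPM against 381 to 843 in 10 of the others and 4375 in low dose culture N. Of the fibroblast markers, Dcn, Lum and Slc6a13 measured 68.3, 34.8 and 40.0 CPM in G but 0.587, 0.196 and 0 in N. Microglial markers, a cell type not listed among those plated, summed to 437 to 1765 CPM in sets A, G and M and to 49.2 to 61.9 CPM in P, Q and R. Group means of Ccl2 and Cxcl1 and the tests of the ligands are given with and without culture G. Correlations, nearest genes and shares of variation are given mainly without it. In bulk RNA, fewer cells of a type and less RNA per cell cannot be told apart.

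**Figure D1:**
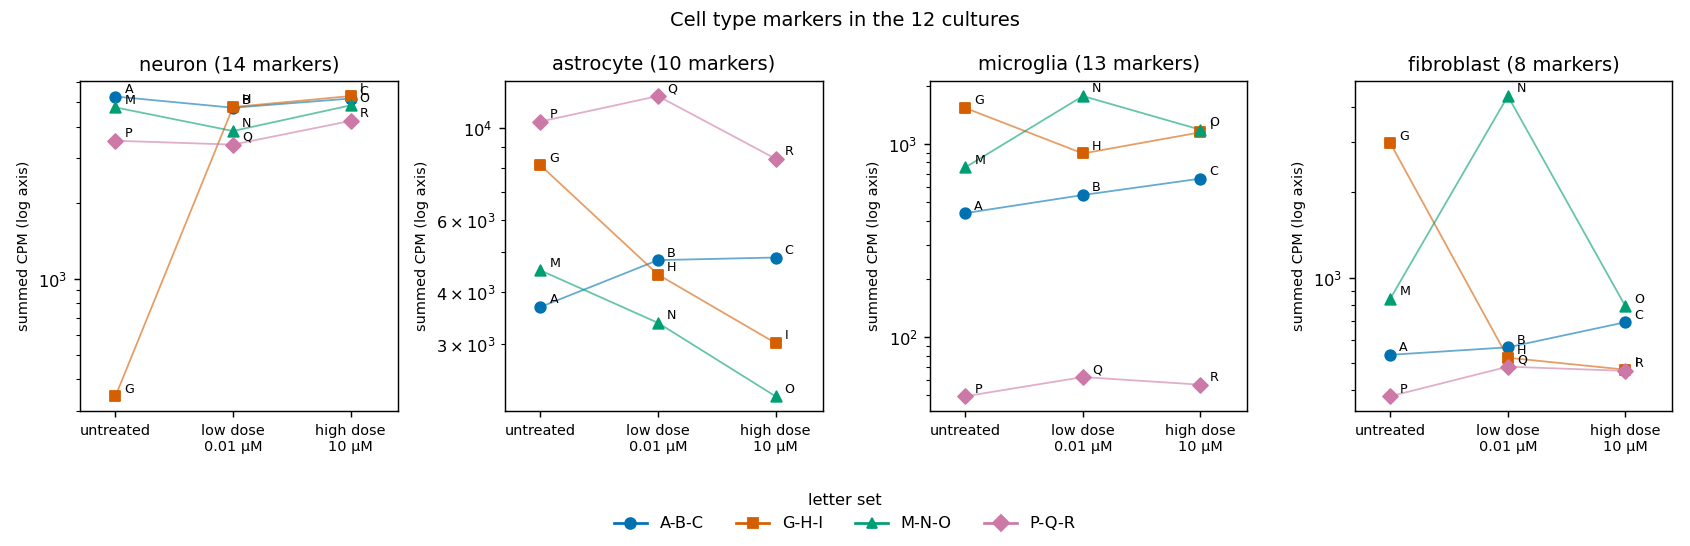
Summed CPM (log axis) of the markers of neurons, astrocytes, microglia and fibroblasts in each of the 12 cultures, by condition, with lines joining cultures of a letter set. Culture G had 342 CPM of neuron markers, and the P, Q and R cultures had 49.2 to 61.9 CPM of microglial markers.

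The monocyte ligands were higher in the high dose cultures than in the low dose culture of the same letter set in every set. Ccl2 measured 5.96 CPM in culture A, 409 in G, 14.6 in M and 12.7 in P. At the low dose it measured 9.70 in B, 13.5 in H, 54.2 in N and 16.1 in Q, and at the high dose 15.2 in C, 53.5 in I, 112 in O and 39.0 in R. The high dose range lay above untreated cultures A, M and P, overlapped the low dose range, and lay below G. Within letter sets, high dose Ccl2 was 1.56-fold (set A), 3.96-fold (set G), 2.06-fold (set M) and 2.42-fold (set P) the low dose value.

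Ccl7, which lies next to Ccl2 in the order of RefSeq genes of the GRCr8 assembly, was likewise highest in G and, after it, in O. Untreated values were 9.74 CPM in A, 371 in G, 14.5 in M and 13.6 in P. Low dose values were 14.9 in B, 13.2 in H, 70.3 in N and 18.6 in Q, and high dose values were 28.1 in C, 47.0 in I, 109 in O and 41.2 in R. Each high dose culture was again above A, M and P and above the low dose culture of its letter set, by 1.89-, 3.55-, 1.55- and 2.21-fold in sets A, G, M and P.

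**Figure D2:**
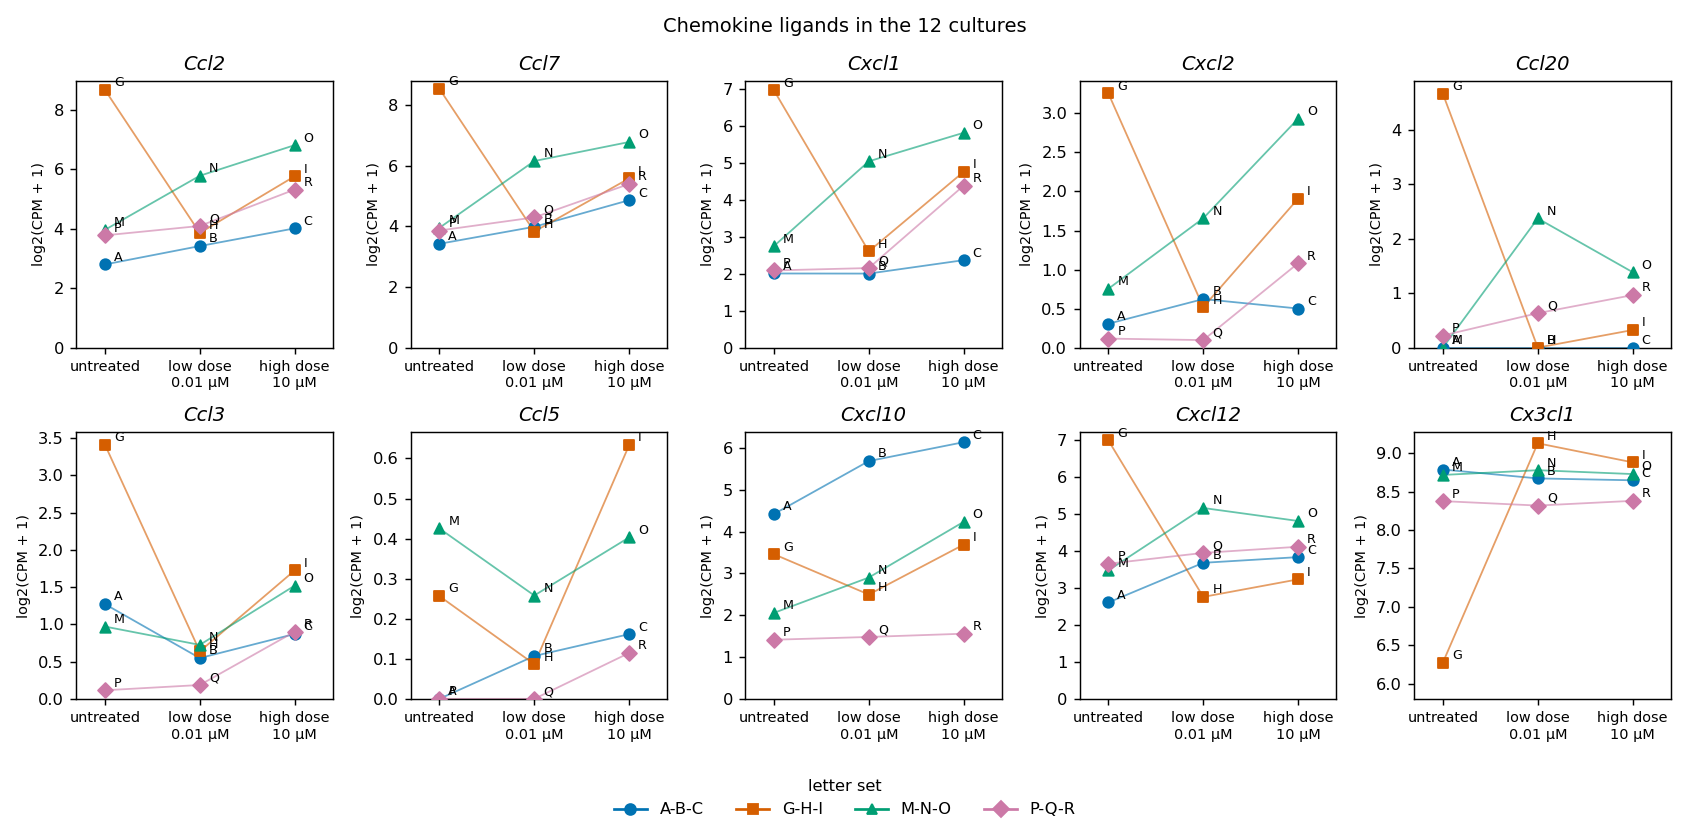
Level of the 10 ligands in each culture as log2(CPM + 1), by condition, with lines joining cultures of a letter set and a separate vertical scale in each panel. Untreated culture G is the highest of the 12 for Ccl2, Ccl7, Cxcl1, Cxcl2, Ccl20, Ccl3 and Cxcl12 and the lowest for Cx3cl1.

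The neutrophil ligands Cxcl1 and Cxcl2, also neighbours in the RefSeq order, were led by the same untreated culture. Cxcl1 measured 3.01 CPM in A, 123 in G, 5.69 in M and 3.24 in P, then 3.0 in B, 5.07 in H, 31.8 in N and 3.44 in Q, and 4.15 in C, 26.0 in I, 55 in O and 19.8 in R. Cultures I, O and R lay above all untreated cultures but G, whereas C overlapped them. The within-set ratio of high to low dose was 1.38 in set A, 5.13 in set G, 1.73 in set M and 5.76 in set P.

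Cxcl2 was a gene of low counts. It had 4 counts in A, 132 in G, 10 in M and 1 in P, 7 in B, 7 in H, 33 in N and 1 in Q, and 7 in C, 55 in I, 103 in O and 27 in R. Cultures I and O were the highest after G, C lay among the untreated cultures, and the value in C was below that in B by 0.12 on the log2(CPM + 1) scale.

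Ccl20 was at or near 0 in most cultures. Its counts were 0 in A, 375 in G, 0 in M and 2 in P, 0 in B, 0 in H, 64 in N and 8 in Q, and 0 in C, 5 in I, 25 in O and 23 in R. Set A had no count at any dose, which at this depth allows up to 0.176 CPM in A. Above 3 counts, taken here as the floor, stood G, N, Q, I, O and R, and the low dose culture N was above every high dose culture. Fitted fold changes of Ccl20 rest on untreated cultures with 0 to 2 counts beside G and are no bound.

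Ccl3 and Ccl5, which attract monocytes and T cells, were also low. Ccl3 measured 1.42 CPM in A, 9.66 in G, 0.960 in M and 0.0832 in P, 0.462 in B, 0.556 in H, 0.653 in N and 0.138 in Q, and 0.83 in C, 2.31 in I, 1.87 in O and 0.868 in R. It was the ligand whose 4 high dose values all lay above its 4 low dose values, although both ranges overlapped that of the untreated cultures. Ccl5 had 0, 3, 5 and 0 counts in A, G, M and P, 1, 1, 3 and 0 in B, H, N and Q, and 2, 11, 5 and 2 in C, I, O and R. With at most 11 counts, Ccl5 did not pass the filter on low counts and was not tested in the reported model. With no filter, its log2 fold changes were -0.21 ± 1.23 (SE) for the low dose and 1.38 ± 1.04 for the high dose against untreated and 1.58 ± 1.02 between the doses, with unadjusted p of 0.87, 0.212 and 0.152 by edgeR, so that no difference was detectable at this depth.

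Cxcl10 was set apart by letter set more than by dose. Set A had 20.4 CPM in A, 50.4 in B and 69.3 in C, set G had 9.99 in G, 4.63 in H and 11.9 in I, set M had 3.15 in M, 6.46 in N and 17.8 in O, and set P had 1.66 in P, 1.79 in Q and 1.94 in R. Every high dose culture was above the untreated and the low dose culture of its set, with ratios of high dose to untreated of 3.40 in set A, 1.19 in set G, 5.64 in set M and 1.17 in set P. Culture G ranked 6 of 12 for Cxcl10, whereas it was the highest for each ligand above other than Ccl5. The condition ranges overlapped widely, with 25.2 ± 30.1 CPM at the high dose, 15.8 ± 23.1 at the low dose and 8.79 ± 8.52 untreated (SD, n = 4).

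The constitutive ligands Cxcl12 and Cx3cl1 differed little between the doses of fentanyl. Cxcl12 measured 5.08 CPM in A, 125 in G, 10.1 in M and 11.6 in P, 11.8 in B, 5.74 in H, 34.7 in N and 14.4 in Q, and 13.2 in C, 8.37 in I, 26.9 in O and 16.3 in R. The low dose mean of 16.6 ± 12.5 and the high dose mean of 16.2 ± 7.87 (SD, n = 4) lay within their spread of each other, and in sets A, M and P both doses were above the untreated culture.

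Cx3cl1 measured 441 CPM in A, 76.3 in G, 420 in M and 331 in P, 407 in B, 560 in H, 439 in N and 318 in Q, and 400 in C, 471 in I, 424 in O and 332 in R. Outside set G, the high dose value was 0.907 to 1.01 times the untreated value of its set. Culture G was the lowest, with 0.173 times the level of the highest untreated culture, beside its low neuron markers; whether the fewer neuron transcripts account for it was not tested.

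For the ligands highest in G, the untreated mean turned on that culture. Ccl2 had 111 ± 199 CPM over the 4 untreated cultures (SD, n = 4) and 11.1 ± 4.55 over A, M and P (SD, n = 3), against 23.4 ± 20.7 at the low dose and 54.9 ± 41.1 at the high dose (SD, n = 4). Cxcl1 likewise had 33.8 ± 59.7 with G and 3.98 ± 1.49 without it, against 26.2 ± 21.3 at the high dose. The order of untreated and high dose means was therefore opposite with and without G for both genes.

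Low dose and untreated cultures were compared first, to ask whether 0.01 µM fentanyl altered the ligands. In the reported model, which carries 1 factor of unwanted variation estimated from the replicates, 9 of the 10 ligands were tested among 12271 genes by the quasi-likelihood test of edgeR. A gene was called at a Benjamini-Hochberg adjusted p under 0.05 with a log2 fold change beyond 0.5, and 0% of all genes were called (0 genes, with 91 at an unadjusted p under 0.05). No ligand was called, and none of the 9 reached an unadjusted p under 0.05, against 0.546% of all genes on the higher side. The fitted log2 fold changes ran from -1.21 ± 0.65 (SE) for Ccl3 to 3.01 ± 1.66 for Ccl20, with 0.44 ± 0.41 for Ccl2, 0.55 ± 0.32 for Ccl7, 0.67 ± 0.56 for Cxcl1, 0.84 ± 0.76 for Cxcl2, 0.75 ± 1.34 for Cxcl10, 0.44 ± 0.43 for Cxcl12 and 0.39 ± 0.28 for Cx3cl1. Without the factor, those of Ccl2, Ccl7, Cxcl1, Cxcl2, Ccl20 and Cxcl12 changed sign.

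No ligand separated low dose from untreated cultures, with or without G, against 0.196% of all genes with G and 0.627% without it on the higher side. None was higher in all 4 letter sets (4.06% of genes were), and Ccl2, Ccl7, Cxcl10 and Cxcl12 were higher in each of the 3 sets other than set G, as were 13.9% of genes. In the model that had the letter sets as a block in place of the factor and left out G, 0% of genes were called, and 5 of the 9 ligands (Ccl2, Ccl7, Ccl20, Cxcl10 and Cxcl12) had an unadjusted p under 0.05 on the higher side against 4.35% of genes. The 5 ligands all had an adjusted p of 0.644 by edgeR there.

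High dose and untreated cultures were compared next. Ccl2, Ccl7, Cxcl1 and Cxcl2 had the smallest p-values of the ligands, with log2 fold changes of 1.72 ± 0.42 (SE), 1.61 ± 0.32, 2.24 ± 0.58 and 2.64 ± 0.74 and unadjusted p of 0.00193, 0.000536, 0.00299 and 0.00479 by the quasi-likelihood test of edgeR. With each culture left out in turn, the log2 fold change ran from 0.99 (without A) to 2.36 (without G) for Ccl2, from 1.04 (without A) to 2.16 (without G) for Ccl7, from 1.82 (without A) to 2.70 (without G) for Cxcl1 and from 2.07 (without O) to 3.03 (without M) for Cxcl2. None was called, each with an adjusted p of 1.0, and 0% of all genes were called (0 genes, with 146 at an unadjusted p under 0.05). These 4 of 9 ligands compare with 0.921% of all genes at an unadjusted p under 0.05 on the higher side. The other 5 had log2 fold changes of 3.06 ± 1.75 for Ccl20, 1.44 ± 1.33 for Cxcl10, 0.49 ± 0.43 for Cxcl12, 0.44 ± 0.60 for Ccl3 and 0.31 ± 0.28 for Cx3cl1, all within 2 SE of 0 and all above it.

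The sign of the difference from untreated cultures turned for some ligands when the factor was dropped, and its size moved with culture G. Over all 12 cultures without the factor, the log2 fold changes of Ccl2, Ccl7 and Cxcl1 were -1.01, -0.86 and -0.37. With the letter-set block in place of the factor they were 0.38, 0.40 and 0.56 with G, and with G left out they were 2.13 ± 0.33 (SE), 2.12 ± 0.33 and 2.44 ± 0.56, with adjusted p of 0.0574, 0.0617 and 0.189 by edgeR. In the model without G, Cxcl10, Cxcl2 and Cxcl12 had 1.86 ± 0.32, 2.94 ± 0.61 and 1.13 ± 0.25. Their adjusted p were 0.0843, 0.143 and 0.156 by edgeR. In that model 0.122% of genes were called, none of them a ligand, and 7 of the 9 ligands had an unadjusted p under 0.05 on the higher side against 5.76% of genes. Ccl7 alone of the ligands was called in any setting tried, by the Wald test of DESeq2 (adjusted p = 0.00885) and by the likelihood ratio test of edgeR (adjusted p = 0.0127) in this comparison.

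Over all 4 untreated cultures, no ligand separated from the high dose cultures (0.359% of genes did on the higher side). Without G, Ccl2 and Ccl7 did, as 1.17% of genes. Cxcl10 was the ligand above the untreated culture in all 4 letter sets (5.22% of genes), and Ccl2, Ccl7, Cxcl1, Cxcl2, Cxcl10 and Cxcl12 were above it in the 3 sets other than set G (15.1% of genes). In those sets the difference in log2(CPM + 1) was 1.22, 2.85 and 1.54 for Ccl2 (sets A, M and P) and 0.36, 3.06 and 2.29 for Cxcl1, whereas in set G it was -2.91 for Ccl2 and -2.20 for Cxcl1.

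**Figure D3:**
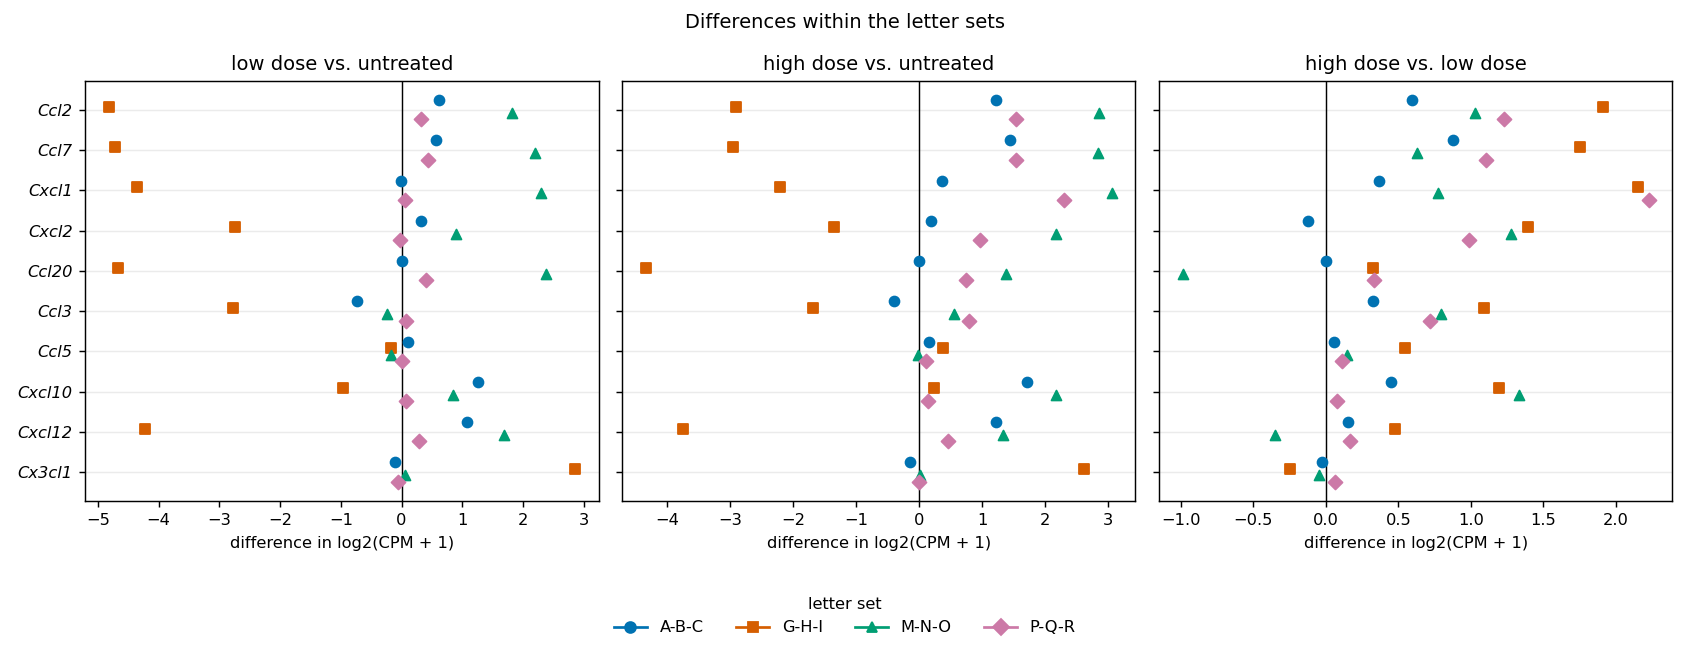
Difference in log2(CPM + 1) within each letter set for the 10 ligands in the 3 comparisons, with 1 point per letter set and a separate horizontal scale in each panel. Points of the set G-H-I lie far below 0 in both comparisons with untreated culture G for most ligands (-4.82 and -2.91 for Ccl2), and the 4 points of Ccl2, Ccl7, Cxcl1, Ccl3, Cxcl10 and the untested Ccl5 lie above 0 for high dose vs. low dose.

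The comparison of the high with the low dose sets only fentanyl cultures against each other, although the reported model estimates its factor and spread on all 12. In the reported model, Ccl2, Ccl7, Cxcl1, Cxcl2 and Ccl3 had log2 fold changes of 1.28 ± 0.40 (SE), 1.06 ± 0.31, 1.56 ± 0.55, 1.80 ± 0.68 and 1.64 ± 0.62, with unadjusted p of 0.00928, 0.00664, 0.0173, 0.0239 and 0.024 by edgeR. None was called, with adjusted p of 1.0, as 0% of all genes were (0 genes, with 144 at an unadjusted p under 0.05). The 5 of 9 ligands on the higher side compare with 0.579% of genes. Cxcl10 (0.69 ± 1.22), Ccl20 (0.05 ± 0.88), Cxcl12 (0.05 ± 0.42) and Cx3cl1 (-0.07 ± 0.28) had differences smaller than their SE. The Cxcl10 value moved when a single culture of set A was left out, being -0.62 without culture C and 2.58 without culture B. Within letter sets, its high dose value was above its low dose value in all 4, by 0.45 in set A on the log2(CPM + 1) scale.

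Ccl3 separated the high from the low dose cultures, as 0.668% of genes did on the higher side. Of the 9 ligands tested, Ccl2, Ccl7, Ccl3, Cxcl1 and Cxcl10 were higher in all 4 letter sets, against 11.7% of genes. For Ccl2 the differences in log2(CPM + 1) were 0.60, 1.91, 1.03 and 1.23, for Ccl7 0.88, 1.75, 0.63 and 1.10, and for Cxcl10 0.45, 1.19, 1.33 and 0.08 (sets A, G, M and P). Cx3cl1 showed -0.02, -0.25, -0.05 and 0.06, and Cxcl12 showed 0.15, 0.47, -0.35 and 0.17.

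A model of the 8 fentanyl cultures alone, with the letter sets as a block, was added after the data had been seen. There the log2 fold change was 1.26 ± 0.18 (SE) for Ccl2, with an adjusted p of 0.0607 by edgeR. Ccl7 had 1.11 ± 0.17 and Ccl3 1.70 ± 0.32, with adjusted p of 0.0713 and 0.110 by edgeR. Cxcl1 had 1.56 ± 0.33, Cxcl2 1.82 ± 0.45 and Cxcl10 0.91 ± 0.21, with adjusted p of 0.129, 0.179 and 0.158 by edgeR. No ligand was called, against 0.173% of genes (21 of 12110, 4 of them higher). With the block over the 11 cultures other than G, 0.113% of genes were called, no ligand among them, and Ccl2, Ccl7, Ccl3, Cxcl1, Cxcl2 and Cxcl10 had an unadjusted p under 0.05 against 7.75% of genes on the higher side.

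**Figure D4:**
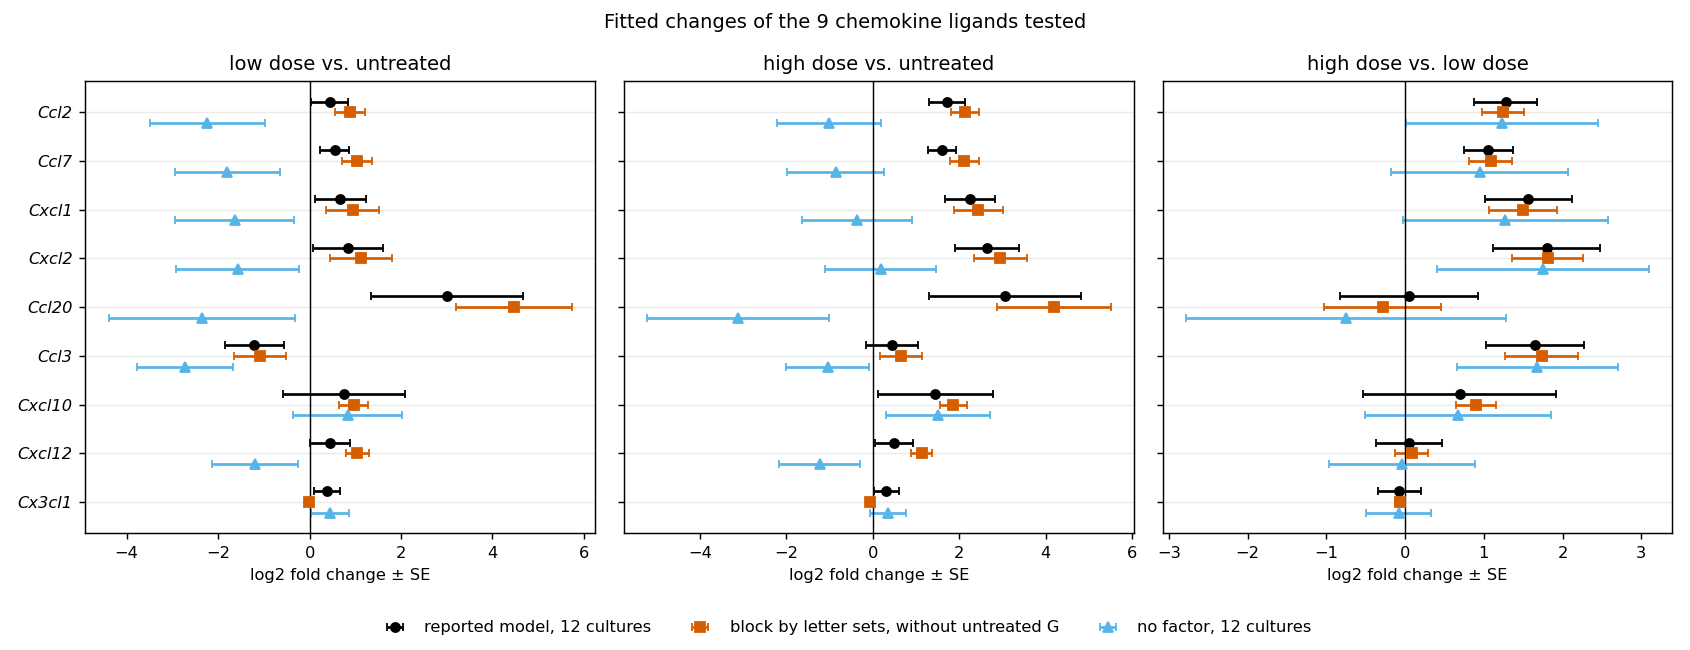
Fitted log2 fold change ± SE of the 9 ligands tested in the 3 comparisons, under the reported model, the letter-set block without untreated culture G, and a model with no factor; each panel has its own horizontal scale. For high dose vs. untreated the models place Ccl2 at 1.72, 2.13 and -1.01, and for high dose vs. low dose the 3 estimates of Ccl2 lie between 1.23 and 1.28.

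Markers of several cell types also differed between cultures and conditions, not always in the direction of the ligands, and their part in the results was not tested. All 13 microglial markers had fitted log2 fold changes above 0 in both comparisons with untreated cultures (medians of 0.88 and 0.86) and 6 of 13 in high dose vs. low dose (median of -0.01), none called. With the letter-set block and G left out, all 13 were again above 0 against untreated at both doses (medians of 0.69 and 0.77). There 11 of 13 had an unadjusted p under 0.05 by edgeR on the higher side at each dose, against 4.35% and 5.76% of genes. From the low to the high dose, their summed level went from 542 to 660 CPM in B and C, from 890 to 1146 in H and I, from 1765 to 1181 in N and O, and from 61.9 to 56.5 in Q and R. In Q and R, 12 and 11 of the 13 markers were above 3 counts. From Q to R, Cd68 (8.05 to 11.5 CPM), Ptprc (0.619 to 1.16), Aif1, Tyrobp and C1qa rose. C1qb (16.5 to 12.7 CPM), C1qc (14.4 to 10.5), Csf1r (5.92 to 4.22), Itgam, Trem2, Tmem119, P2ry12 and Cx3cr1 fell. Between the same 2 cultures Ccl2 went from 16.1 to 39.0 CPM and Cxcl1 from 3.44 to 19.8. Culture N, the highest low dose culture for Ccl2, Ccl7, Cxcl1, Cxcl2, Ccl20, Ccl3 and Cxcl12, also had the highest sum of fibroblast markers among the low dose cultures (4375 against 485 to 567 CPM). In N, Col1a1, Col1a2, Fn1, Mgp and Col3a1 measured 1265, 1359, 1117, 400 and 233 CPM, whereas Dcn, Lum and Slc6a13 measured 0.587, 0.196 and 0. All 6 fibroblast markers tested had a log2 fold change below 0 for the high against the low dose (median of -1.13), none called. Astrocyte markers were above 0 in 0 of 10 in each comparison, with medians of -0.21 and -0.51 for the low and high dose against untreated and -0.24 between the doses. Neuron markers were above 0 in 13, 14 and 10 of 14, with medians of 0.37, 0.58 and 0.21, and none of either list was called. With the letter-set block and G left out, neuron markers were above 0 in 3 and 9 of 14 for the low and high dose against untreated. Their medians were then -0.16 and 0.11. Astrocyte markers were above 0 in 4 and 1 of 10, with medians of -0.14 and -0.30. At an unadjusted p under 0.05 by edgeR, 3 neuron markers were lower for the low dose, against 393 of 12337 genes. For the high dose, 1 neuron marker was higher, and 2 neuron markers and 1 astrocyte marker were lower. Of all genes, 5.76% were higher and 453 of 12337 lower there. For the high against the low dose, 7 neuron markers were higher and 1 lower, and 2 astrocyte markers were lower, at that threshold. In that comparison 7.75% of genes were higher and 722 of 12337 lower.

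Across the 11 cultures other than G, Ccl2, Ccl7, Cxcl1 and Cxcl2 followed each other. These correlations of log2(CPM + 1) are a description over 11 cultures that share letter sets, doses and depth. Pearson's r was 0.97 for Ccl2 with Ccl7, 0.97 for Ccl2 with Cxcl1, 0.94 for Cxcl1 with Cxcl2 and 0.91 for Ccl2 with Cxcl2. Ccl3 followed them less closely (r = 0.49 with Ccl2, 0.48 with Ccl7, 0.60 with Cxcl1 and 0.71 with Cxcl2) and had r = 0.08 with Ccl20. Cxcl10 and Cx3cl1 had r of -0.09 and 0.05 with Ccl2, and Ccl20 was nearest among the ligands to Cxcl12 (r = 0.86). Some of these values rest on leaving out G. Over all 12 cultures, r was -0.67 for Ccl2 with Cx3cl1, 0.74 for Ccl3 with Ccl20 and 0.79 for Ccl2 with Ccl3, whereas Ccl2 with Ccl7 had 0.98.

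**Figure D5:**
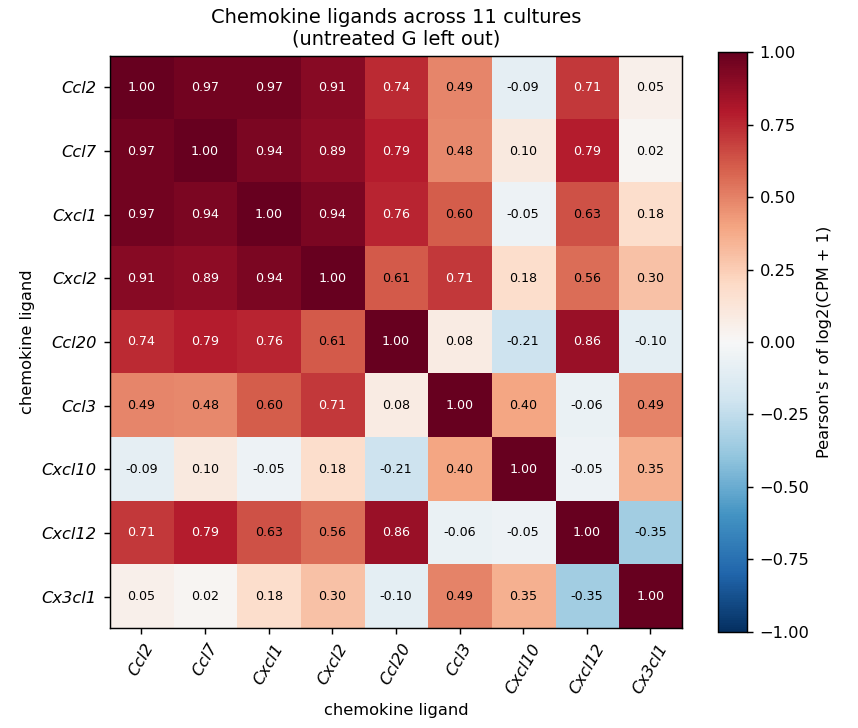
Pearson's r of log2(CPM + 1) between each pair of the 9 ligands tested, over the 11 cultures other than untreated G. Ccl2, Ccl7, Cxcl1 and Cxcl2 have r of 0.89 to 0.97 with each other, and Cxcl10 has r of -0.21 to 0.40 with the other ligands.

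Of the variation over these 11 cultures, dose held 53.5% for Ccl7, 46.3% for Ccl2, 42.9% for Ccl3, 38.4% for Cxcl1 and 37.0% for Cxcl2, against a median of 7.96% over all genes tested. The letter sets held 31.4%, 46.2%, 38.4%, 46.6% and 47.7% for the same genes, more than dose for Cxcl1 and Cxcl2 and about as much for Ccl2. For Cxcl10 and Cx3cl1 the letter sets held 83.3% and 92.0%, and dose held 10.3% and 3.06%. The median gene had 75.3% with the letter sets. Shares with culture G included were not computed.

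The genes with the nearest pattern were taken as the 3 tested genes of highest r over the same 11 cultures. Trim47 was nearest to both Ccl2 and Ccl7 (r = 0.98), followed for Ccl7 by Ccl2 and by Csf1 (r = 0.96), a growth factor of macrophages and microglia. Cxcl1 was nearest to Zc3h12a (r = 0.97), which encodes an RNase that degrades inflammatory transcripts, then to Ccl2 and Klf6, and Cxcl2 to Klf6 (r = 0.98), Slpil2 and Hspa5. Cxcl10 was nearest to Rsad2 (r = 0.97), Dtx3l and Psmb9, which are interferon-induced genes. For Ccl20 the nearest were Loxl1 (r = 0.93), Dhrs9 and Adamts5, for Ccl3 Acvr1 (r = 0.91), Scn2b and Paqr9, for Cxcl12 Hps1 (r = 0.96), Osmr and Nvl, and for Cx3cl1 Psmd14 (r = 0.97), Twf2 and Kcnk1.

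Receptors of the ligands were scarce. Of the 24 listed receptors, 20 were in the table and 7 were tested, and none of the 7 had an unadjusted p under 0.05 in a comparison of the reported model. Cx3cr1, the receptor of Cx3cl1, measured 1.53 to 6.13 CPM in the cultures of sets A and M, 0.584 to 2.91 in set G and at most 0.0832 in set P. Ccr1 reached 19.6 CPM in N and at most 0.413 in set P. For high dose vs. untreated their log2 fold changes were 0.91 ± 1.29 (SE) for Cx3cr1 and 0.75 ± 1.11 for Ccr1. With the letter-set block and G left out, Ccr1 (0.83, unadjusted p = 0.0234 by edgeR), Cx3cr1 (0.92, 0.0323) and Ccr7 (1.30, 0.0378) were on the higher side for the low dose against untreated. These were 3 of the 8 receptors tested in that model, against 4.35% of genes. Between the doses, Ackr2 was on the higher side (1.03, unadjusted p = 0.0303 by edgeR) and Ccr7 on the lower side (-2.02, 0.0028), against 7.75% of genes higher and 722 of 12337 lower. None of these receptors was called.

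The Cxcl12 receptors were above the floor in all cultures. Cxcr4 measured 17.1 CPM in G and 2.25 to 8.94 in the others, and Ackr3, a scavenging receptor, 14 in G and 4.26 to 9.49 in the others, with high dose vs. untreated log2 fold changes of -0.04 ± 0.57 (SE) and -0.38 ± 0.31, the latter the lowest of the 7. Receptors of the other ligands were not tested, with counts of at most 2 for Ccr6 and Cxcr2, 9 for Cxcr3, 14 for Cxcr1 and 0 for Ccr3. Low dose vs. untreated, the receptors ran from Cxcr4 (-0.20 ± 0.57) to Ccr1 (1.21 ± 1.12), and high dose vs. low dose from Ccr1 (-0.46 ± 1.09) to Ackr2 (0.87 ± 1.15). Ccr2, the main receptor of Ccl2 and Ccl7, was not analysed here.

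Other chemokine ligands lay mostly on the same side as the 10. Of 27 listed, 13 were tested, and none was called in the reported model. Cxcl13 and Pf4 of those tested, and the untested Cxcl11, were also picked out by the study from these same cultures. Their direction is therefore not independent evidence. For high dose vs. untreated, 12 of 13 had a log2 fold change above 0 with a median of 0.91, against 9 of the 9 tested ligands described above with a median of 1.61 and a median of 0.00 over all genes. Cxcl13, a B cell attractant, had the largest at 3.83 ± 1.39 (SE), with an unadjusted p of 0.02 and an adjusted p of 1.0 by edgeR, and Cxcl14 the smallest at -0.13 ± 0.38. Cxcl13 stood at 23.0 CPM in G, 9.18 in I and 7.16 in O and at no more than 1.48 elsewhere. Low dose vs. untreated, the list ran from Ccl4 (-0.37) to Cxcl6 (2.63) with a median of 0.46, and high dose vs. low dose from Ccl17 (-0.42) to Cxcl13 (2.24) with a median of 0.31.

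In the reported model, most genes that induce chemokines, and most of the NF-kB pathway, showed small differences. Of 37 listed, 28 were tested, with median log2 fold changes of -0.02 for the low dose and 0.14 for the high dose against untreated, and of 0.12 between the doses. Tlr2 and Il1a of this list were picked out by the study from these same cultures, so their direction is not independent evidence. Il1b, a cytokine that induces many of these ligands, was the largest for high dose vs. untreated at 2.81 ± 1.02 (SE), with counts of 1, 59, 13 and 0 in A, G, M and P and of 4, 75, 73 and 17 in C, I, O and R. Tlr2, a receptor for microbial lipoproteins, had 1.0 ± 0.23 and Nfkbia, the NF-kB inhibitor that NF-kB itself induces, 0.67 ± 0.14. These 3 genes had unadjusted p of 0.02, 0.0014 and 0.00085 by edgeR, and none was called in the reported model. They are 3 of 28, against 0.921% of all genes. With the letter-set block and G left out, 24 of 28 were above 0 for the high dose against untreated (median of 0.26). There 9 had an unadjusted p under 0.05 by edgeR on the higher side, against 5.76% of genes. For the low dose 4 did, against 4.35%. Between the doses 10 were higher and 1 lower, against 7.75% of genes higher and 722 of 12337 lower.

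Nfkbia had separate ranges at the high and low dose. It measured 31.8 CPM in A, 105 in G, 26.4 in M and 23.1 in P, 33.0 in B, 26.7 in H, 39.1 in N and 26.5 in Q, and 46.1 in C, 52.7 in I, 59.8 in O and 41.1 in R. All high dose values were above all low dose values, as for 0.668% of genes, and above A, M and P, as for 1.17% of genes. With the letter-set block and G left out Nfkbia was called for high dose vs. untreated (log2 fold change 0.89, adjusted p = 0.044 by edgeR), as were 0.122% of genes. It was not called for high dose vs. low dose (0.68, adjusted p = 0.069 by edgeR), where 0.113% of genes were. The smallest of the list for high dose vs. untreated was Irf3 at -0.31 ± 0.28 (SE), low dose vs. untreated ran from Ikbkg (-0.17) to Il1r1 (1.04), and high dose vs. low dose from Il1r1 (-0.80) to Il1b (1.84).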

How the data were processed

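Poly(A)+ libraries (Illumina TruSeq RNA kit) of 12 cultures were mapped by the authors with STAR (rn6), and featureCounts gave the raw counts per gene and culture that were deposited, while the handling of reads shared between related genes and of strand is not given in the sources used here. Conditions were taken from the labels. In R 4.3.3, counts were scaled by TMM and filtered with filterByExpr in edgeR 4.0.16, which kept 12271 genes, and 1 RUVs factor was fitted to remove unwanted variation seen among replicates, which held 41.0% of the variation within conditions. RUVseq and edgeR are the tools the study names, and the number of factors and the test are choices made here. The quasi-likelihood test was run on all 12 cultures and tested on simulated data first. CPM are counts divided by the TMM-scaled library size. Library totals of 12059872 to 24813893 limit the precision of low genes, for which 3 counts were the floor, and counting limits cover counting error only. Alternatives were DESeq2 1.42.0 size factors or its Wald test, no filter, no factor, 2 factors, the likelihood ratio test, letter-set blocks and each culture left out.

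The members and gene lists were chosen with earlier results of these data known. Named genes were the 10 ligands, receptors of these ligands, the largest and smallest change of each list per comparison, list genes called in a comparison, and the 3 nearest genes by correlation. The letters pair samples by no statement of the labels, so the block was an alternative. Ccl5 failed the filter. A result that involves an item withheld for evaluation is not reported here. Gene order came from RefSeq (GRCr8, 10 of 10 symbols matched), which is not the build of the counts, so no coordinates are given.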

Additional observations from a re-analysis of the deposited data

Results flagged for a closer look

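Of 30 groups of 4 cultures, 4 had a culture far from the others by Dixon's test, and in each it was untreated culture G. Its gap to the nearest untreated culture, as a share of the group's range of log2(CPM + 1), was 0.897 for Ccl7 (8.54 against 3.42 to 3.95), 0.9524 for Ccl20 (4.66 against 0 to 0.22), 0.8509 for Cxcl1 (6.96 against 2.0 to 2.74) and 0.8364 for Cx3cl1 (6.27 against 8.38 to 8.79). Chance gives about 1 in 20 per group, but the groups share cultures and correlated ligands, so the 4 are not separate events. For Ccl20 the other untreated cultures had 0 to 2 counts, under the floor. Ccl2, Ccl3, Cxcl2 and Cxcl12 were also highest of all 12 cultures in G without passing Dixon's test. In CPM, G was 28.0 times the next untreated culture for Ccl2, 25.7 times for Ccl7, 21.7 times for Cxcl1 and 10.8 times for Cxcl12.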

How the results depend on the processing

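The sign of several differences from untreated cultures depended on the model, and 193 of 224 values from other settings and 302 of 324 with a culture left out kept direction and call. With no factor, low dose vs. untreated became -2.24 for Ccl2, -1.81 for Ccl7, -2.36 for Ccl20, -1.64 for Cxcl1, -1.57 for Cxcl2 and -1.19 for Cxcl12, high dose vs. untreated -1.01 for Ccl2, -0.86 for Ccl7, -3.12 for Ccl20, -1.05 for Ccl3, -0.37 for Cxcl1 and -1.23 for Cxcl12, and high dose vs. low dose -0.76 for Ccl20 and -0.0403 for Cxcl12. With the letter-set replicate block over 12 cultures, low dose vs. untreated became -0.68 for Ccl2, -0.54 for Ccl7, -1.62 for Ccl20, -0.81 for Cxcl1, -0.90 for Cxcl2 and -0.46 for Cxcl12, high dose vs. untreated -1.99 for Ccl20, -0.24 for Ccl3 and -0.45 for Cxcl12, and high dose vs. low dose -0.37 for Ccl20, with 0, 0 and 0 genes called. With the block and without G, Cx3cl1 became -0.0061 and -0.0718 against untreated and Ccl20 -0.28 between doses, which Ccl20 also did with no filter (-0.0383) and with 2 factors (-0.19).

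Same-letter cultures had correlated deviations of 0.66 to 0.89 between the doses and of -0.19 to 0.77 with untreated cultures, and since the letters are not numbers that conditions share, the block stayed an alternative. Genes called for high dose vs. untreated numbered 15 with the block without G, 3 with DESeq2, 2 with the likelihood ratio test and 1 with 2 factors, and for high dose vs. low dose 14 with the block without G, 21 with the block on the 8 fentanyl cultures, 1 with DESeq2 and 1 with 2 factors. For low dose vs. untreated the count was 0 in every setting run. With a culture left out the counts of called genes were 0 to 0, and genes without overlap were 66 to 417, 122 to 605 and 220 to 615 against 50, 84 and 146. Leaving out a culture can only keep or raise the count without overlap, so the direction of that change was fixed in advance.

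With a culture left out, low dose vs. untreated ran from -0.29 to 1.14 for Ccl2, -0.0056 to 1.21 for Ccl7, -0.0301 to 1.40 for Cxcl1, -0.99 (without B) to 2.56 (without A) for Cxcl10 and -0.17 to 0.97 for Cxcl12. High dose vs. untreated ran from -0.24 to 1.07 for Ccl3 and -0.15 to 0.93 for Cxcl12, and high dose vs. low dose from -0.90 to 1.19 for Ccl20, -0.62 (without C) to 2.58 (without B) for Cxcl10, -0.21 to 0.31 for Cxcl12 and -0.22 to 0.0723 for Cx3cl1. High dose vs. low dose values of Ccl2, Ccl7, Cxcl1, Cxcl2 and Ccl3 stayed above 0 in all settings run. The cause of the reversals was not tested. Depth limits Ccl5 and Ccl20, whose counts were near the floor in most cultures.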
